A study of Rhinolophus ferrumequinum with 8 samples.

Results

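Hemoglobin genes and the chaperone of free alpha-globin were followed through the hibernation cycle in the spleen of the greater horseshoe bat. The members were taken by name: HBZ, HBM, HBQ1, AHSP and 4 adult globin loci that carry only a locus number (LOC117019384, LOC117019380, LOC117030459 and LOC117030460), 8 of the 19652 genes in the table. RNA of whole spleen from wild female bats was sequenced in 8 libraries, 2 biological replicates in each of 4 states. Summer active bats were sampled in July. Torpor, arousal and winter active bats were sampled in November, arousal bats 2 h and winter active bats 26 h after capture. The labels give no age, and do not say whether each replicate is 1 animal. The p-values therefore measure the spread between these libraries. Libraries are named by state and replicate number. Levels are rescaled TPM, a measure of transcript abundance per transcript length, so levels of different genes can be set side by side. The deposited values hold no read counts, and the depth behind them is unknown.

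Hemoglobin carries oxygen as a tetramer of alpha-type and beta-type chains around heme. Red cell precursors make both chains in near balance, because free alpha chains are unstable, and AHSP binds them until they find a partner. In many mammals the spleen is a site of red cell production as well as of storage and clearance of aged red cells. HBZ encodes the embryonic zeta chain, while HBM and HBQ1 encode the mu and theta chains, alpha-type relatives expressed at low levels in adult red cell precursors of mammals that have been studied.

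The unnamed loci were placed by gene order in the annotation. From NPRL3 to LUC7L the protein-coding genes read HBZ, HBM, LOC117019384, LOC117019380, HBQ1 and LOC117034844, so the first pair of adult loci lies inside the alpha-type cluster. This pair is called the alpha-cluster pair below. LOC117030459 and LOC117030460 are next to each other on another chromosome and are called the second pair. The table gives no product names, so the adult and chain type labels of these 4 loci were not checked beyond this order. Near-identical neighbours can share reads, and the split within a pair is uncertain.

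Transcripts of the 4 adult loci dominated the summer spleen and were scarce in November. Their summed level was 382149 and 393045 in summer active 1 and 2, 22234 and 31275 in torpor 1 and 2, 54.0 and 847 in arousal 1 and 2, and 7006 and 152 in winter active 1 and 2. The summer libraries lay above all 6 November libraries, and both torpor libraries lay above the arousal and winter active libraries. Arousal and winter active overlapped. In whole tissue, fewer red cell precursors and less globin RNA per cell cannot be told apart. The 4 loci held 29.9% and 29.5% of all signal in the summer libraries, 2.25% and 3.13% in torpor, 0.00725% and 0.109% in arousal, and 0.754% and 0.0184% in winter active. They were the 4 most abundant genes of the table in both summer libraries. LOC117030459, the most abundant, still ranked 7th and 5th in torpor, but 6074th and 520th in arousal and 67th and 2288th in winter active.

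The second pair was the stronger in summer. LOC117030459 (NCBI gene 117030459) stood at 157267 and 187703 in summer active, 8163 and 12207 in torpor, 18.1 and 209.9 in arousal, and 2166 and 54.7 in winter active. Its neighbour LOC117030460 (NCBI gene 117030460) stood at 81336 and 87467, 5199 and 6805, 9.73 and 150.8, and 1427 and 31.3 in the same order of states. Both loci ran from summer active through torpor to the overlapping arousal and winter active libraries, with no overlap at the first 2 steps. On the level scale the mean of LOC117030459 was 16.9-fold lower in torpor than in summer active, 1513-fold lower in arousal and 155-fold lower in winter active.

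The alpha-cluster pair followed the same order. LOC117019384 (NCBI gene 117019384) had levels of 84149 and 77165 in summer active, 5794 and 7037 in torpor, 11.9 and 213 in arousal, and 1779 and 36.1 in winter active. LOC117019380 (NCBI gene 117019380) had levels of 59398 and 40710.4, 3078 and 5225, 14.2 and 273, and 1634 and 30.1. Replicates were close in summer and torpor and far apart in the other states. For the sum of the 4 loci the higher replicate was 1.03 times the lower in summer active, 1.41 times in torpor, 15.7 times in arousal and 46.0 times in winter active. Arousal 2 and winter active 1 were the higher replicates at each of the 4 loci.

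AHSP (NCBI gene 117019823) had levels of 2514 and 3548 in summer active, 65.4 and 23.3 in torpor, 0.633 and 1.10 in arousal, and 7.21 and 1.56 in winter active. No pair of states overlapped, in the order summer active, torpor, winter active, arousal. The torpor and winter active means of 44.4 ± 29.7 and 4.39 ± 3.99 (SD, n = 2 libraries each) nevertheless had wide errors. Mean AHSP was 68.3-fold lower in torpor than in summer active, against 14.5-fold for the summed adult loci.

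HBM (NCBI gene 117019390) was the most abundant of the 3 named globins. Its levels were 1765 and 3151 in summer active, 24.5 and 25.5 in torpor, 0 and 0.829 in arousal, and 17.0 and 0 in winter active. HBZ (NCBI gene 117019389) stood at 72.8 and 68.0 in summer active and 0.606 and 0.205 in torpor, was listed at 0 in both arousal libraries and in winter active 2, and stood at 0.155 in winter active 1. HBQ1 (NCBI gene 117019406) stood at 22.1 and 24.6 in summer active, 0.430 and 0.0347 in torpor, 0 in both arousal libraries, and 0.0840 and 0.0286 in winter active. HBZ and HBQ1 were thus already below 1 in torpor. HBM kept a level near 25 in torpor, with no overlap with summer, arousal or winter active.

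**Figure D1:**
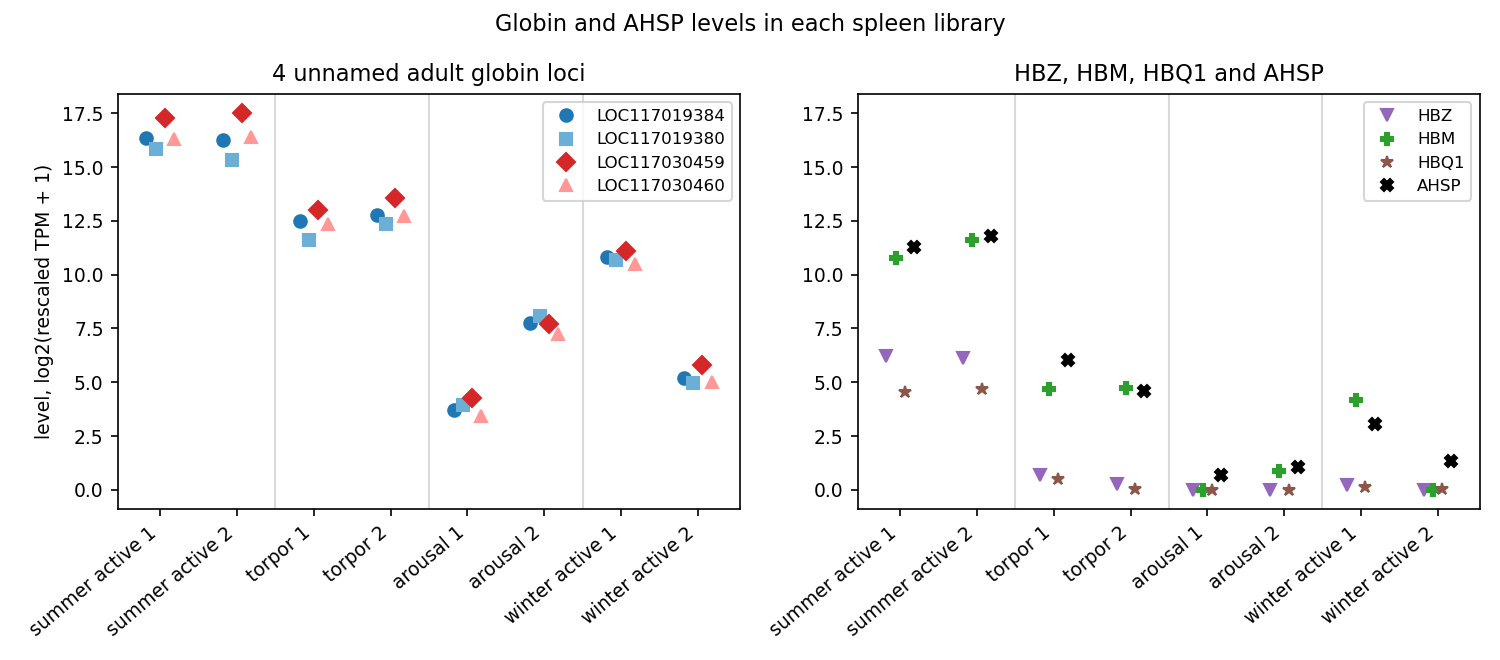
Level of each gene in each library, as log2(rescaled TPM + 1) on the vertical axis, with libraries ordered by state on the horizontal axis and 1 point per gene and library. The 4 adult loci (left) keep intermediate levels in torpor and scatter in arousal and winter active, while HBZ and HBQ1 (right) are near 0 in all 6 November libraries.

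Differences were tested with limma on log2(level + 1), a scale that understates the change of low genes, over the 13542 genes with an 8-library mean of at least 1. All 8 members entered the test. HBZ and HBQ1 did so through their summer levels alone, with November means of 0.161 and 0.0961, so their summer differences are a description. A member was called at an adjusted p (Benjamini-Hochberg over all tested genes) under 0.05.

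The first comparison sets torpid bats beside summer bats. All 8 members lay lower in both torpor libraries than in both summer libraries, as did 26% of tested genes. AHSP fell by 6.22 (log2 difference, SE 0.62, adjusted p = 0.00986), and HBZ and HBQ1 had differences of -5.68 (SE 0.27, adjusted p = 0.00124) and -4.32 (SE 0.29, adjusted p = 0.00218). These 3 of 8 members were called lower, against 0.487% of tested genes. Without HBZ and HBQ1 the count was 1 of 6, AHSP. HBM had a difference of -6.50 (SE 1.15) and did not pass (adjusted p = 0.0700). The adult loci had differences of -3.62 to -4.11, also without passing (adjusted p = 0.293 to 0.399). Their SE of 1.68 to 1.88 is shared over the 4 states and so includes the spread between arousal and between winter active replicates. In a fit of the summer and torpor libraries alone, 6 of 8 members were called, HBZ and HBQ1 among them, beside 22 of 13389 tested genes. There LOC117019384 and LOC117030460 had an adjusted p of 0.0468 and HBM of 0.0108. The AHSP call was lost without summer active 2 (adjusted p = 0.0799) and without torpor 2 (0.0717), and HBM was called without winter active 1 (0.00705) and without winter active 2 (0.0066).

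In arousal against summer active, which sets bats 2 h after capture beside summer bats, all 8 members were called lower, against 3.14% of tested genes, and 6 of 6 without HBZ and HBQ1. LOC117030459 fell by 11.40 (SE 1.68, adjusted p = 0.0210). The other adult loci, LOC117030460, LOC117019384 and LOC117019380, also fell, with differences of -11.03, -10.58 and -9.57 (adjusted p = 0.0244 to 0.0394). AHSP fell by 10.66 (SE 0.62, adjusted p = 0.00129) and HBM fell by 10.77 (SE 1.15, adjusted p = 0.00852). Both arousal libraries lay below both summer libraries at all 8 members and at 25.3% of tested genes. HBZ and HBQ1, listed at 0 in arousal, differed by -6.16 and -4.60. Over the 8 fits without 1 library the difference of LOC117030459 ranged from -13.14 to -9.67. For HBM the range was -11.20 to -10.33 and for AHSP -10.91 to -10.41. HBM and the adult loci lost their calls in some of these fits. In a fit of the summer and arousal libraries alone 4 members passed, HBZ and HBQ1 among them, beside 41 of 13628 tested genes. In each fit without 1 library, fewer of all tested genes were called than in the fit of all 8 libraries.

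Winter active against summer active compares bats active in November, 26 h after capture, with bats active in July. All 8 members again lay below summer in both libraries, as did 21.9% of tested genes, and 4 of 8 were called lower, against 0.894% of tested genes. Without HBZ and HBQ1 the count was 2 of 6. AHSP fell by 9.35 (SE 0.62, adjusted p = 0.00236) and HBM fell by 9.12 (SE 1.15, adjusted p = 0.0192), with HBZ and HBQ1 at -6.05 and -4.52. The adult loci differed by -7.77 to -8.95 and did not pass (adjusted p = 0.0688 to 0.145). HBM kept its call in 11 of 18 alternative settings. Over the fits without 1 library its difference ranged from -11.20 to -7.04. That of LOC117030459 ranged from -11.59 to -6.31 and that of LOC117030460 from -11.35 to -5.88.

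With the 3 November states averaged against summer active, 7 of 8 members were called lower, against 2.26% of tested genes, and 5 of 6 without HBZ and HBQ1. LOC117019380 was the exception, with a difference of -6.99 (SE 1.53, adjusted p = 0.0615). The other adult loci fell by 7.51 to 8.15 (adjusted p = 0.0296 to 0.0471), HBM fell by 8.80 (adjusted p = 0.00659) and AHSP fell by 8.74 (adjusted p = 5.53e-04). HBZ and HBQ1 differed by -5.96 and -4.48. Both summer libraries lay above all 6 November libraries at each of the 8 members and at 10.3% of tested genes. Over the fits without 1 library the difference of LOC117030459 ranged from -9.03 to -7.27. For HBM the range was -9.49 to -8.10 and for AHSP -9.02 to -8.46. HBM and the called adult loci lost their calls in some of these fits. The number of all tested genes called also changed between them.

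Arousal against torpor sets bats 2 h after capture beside torpid bats, in separate libraries that are not paired. No member was called, nor was any of the tested genes (0%), while 2666 tested genes and 6 of 8 members had an unadjusted p under 0.05. AHSP had the smallest p among members (difference -4.44, SE 0.62, adjusted p = 0.142). The adult loci differed by -5.96 to -7.30 (adjusted p = 0.146 to 0.182) and HBM by -4.27 (adjusted p = 0.169). HBZ and HBQ1, both near 0 in torpor already, differed by -0.48 and -0.28. The 8 members were lower in both arousal libraries than in both torpor libraries, which held for 22.2% of tested genes. After each column was rescaled to 1000000, AHSP passed in this comparison (difference -4.26, adjusted p = 0.0456), where that scale also moved the median of all genes to 0.45 and called 441 of them.

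Setting winter active bats beside those in torpor, or beside those in arousal, likewise gave no call among members or over all tested genes (0% in both), with 1787 and 738 genes at an unadjusted p under 0.05. AHSP differed by -3.13 (SE 0.62, adjusted p = 0.271) between winter active and torpor, and the adult loci by -4.15 to -4.85 (adjusted p = 0.326 to 0.393). Between winter active and arousal the adult loci differed by 1.80 to 2.45, with SE of 1.68 to 1.88 (adjusted p = 0.829 to 0.870). The sign turned without winter active 1, at -1.06 to -0.19 for the 4 loci and -0.44 for HBM, and without arousal 1 LOC117019380 stood at -0.28. Against torpor 7 of 8 members lay lower in both winter active libraries, as did 21.3% of tested genes, and HBQ1 overlapped. AHSP (difference 1.31, adjusted p = 0.825) and HBQ1 (0.0840 and 0.0286 against 0 and 0) were higher in both winter active libraries than in both arousal libraries, 2 of 8 members beside 18.1% of tested genes, and the other 6 overlapped.

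**Figure D2:**
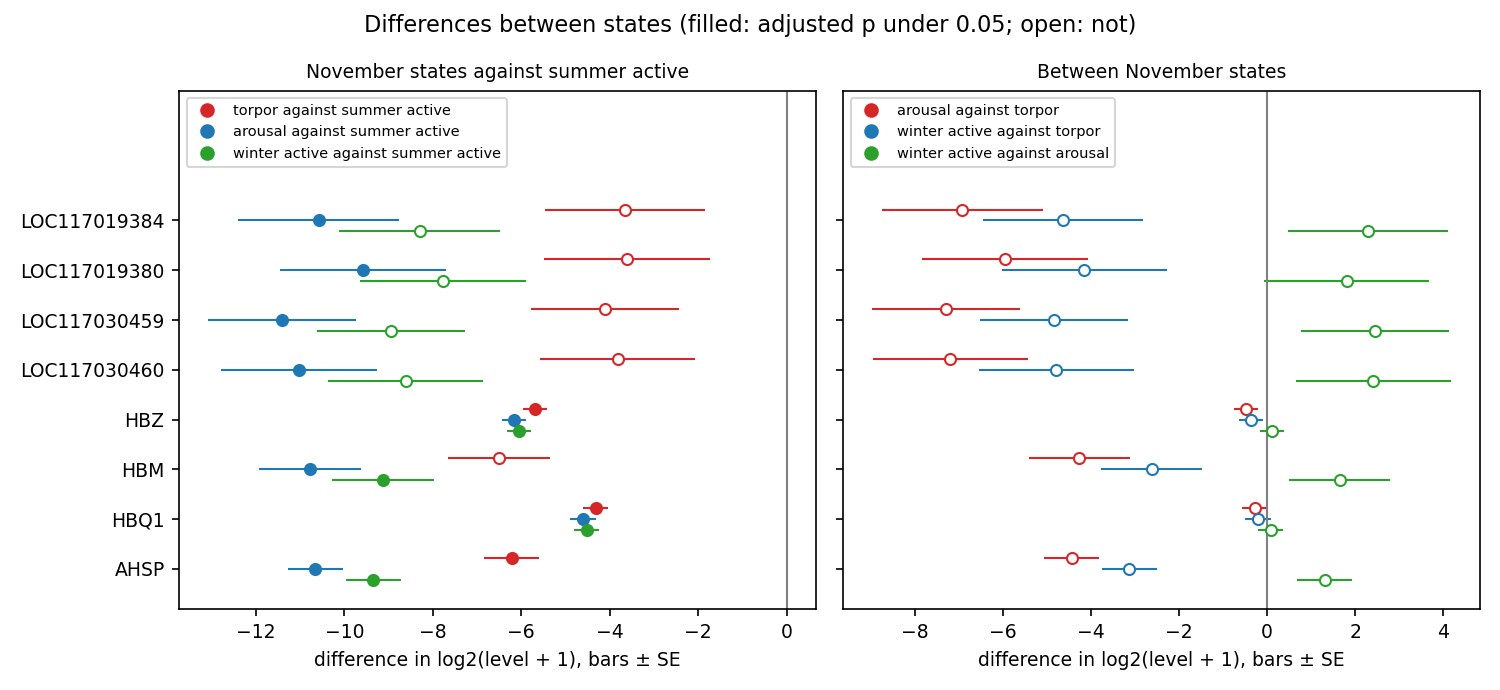
Differences in log2(level + 1) between states for the 8 members, with bars of 1 SE from the fit over all libraries and filled points where the adjusted p was under 0.05. Against summer active (left) all points lie below 0, while between November states (right) no point is filled.

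The mix of adult transcripts also differed between libraries. The second pair summed to 1.66 and 2.33 times the alpha-cluster pair in summer active, 1.51 and 1.55 times in torpor, 1.06 and 0.741 times in arousal, and 1.05 and 1.30 times in winter active. Both summer ratios were above all 6 November ratios, and both torpor ratios above those of arousal and winter active. In the exact permutation test (two-sided) of the log2 ratio the summer mean exceeded the November mean by 0.76 (p = 0.0714, adjusted over 3 ratios p = 0.143). The two-sided p is the one-sided p doubled, and 0.0714 is then the smallest it can be for 2 against 6 libraries. The share of LOC117019380 among the 4 loci was 15.5% and 10.4% in summer active, 13.8% and 16.7% in torpor, 26.4% and 32.3% in arousal, and 23.3% and 19.8% in winter active. The share of LOC117019384 moved less, between 19.6% and 26.1% over the 8 libraries. Within the alpha-cluster pair LOC117019384 was 1.42 and 1.90 times LOC117019380 in summer active and 0.839 and 0.781 times in arousal. LOC117030459 exceeded LOC117030460 in all 8 libraries, by 1.39 to 2.15 times.

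**Figure D3:**
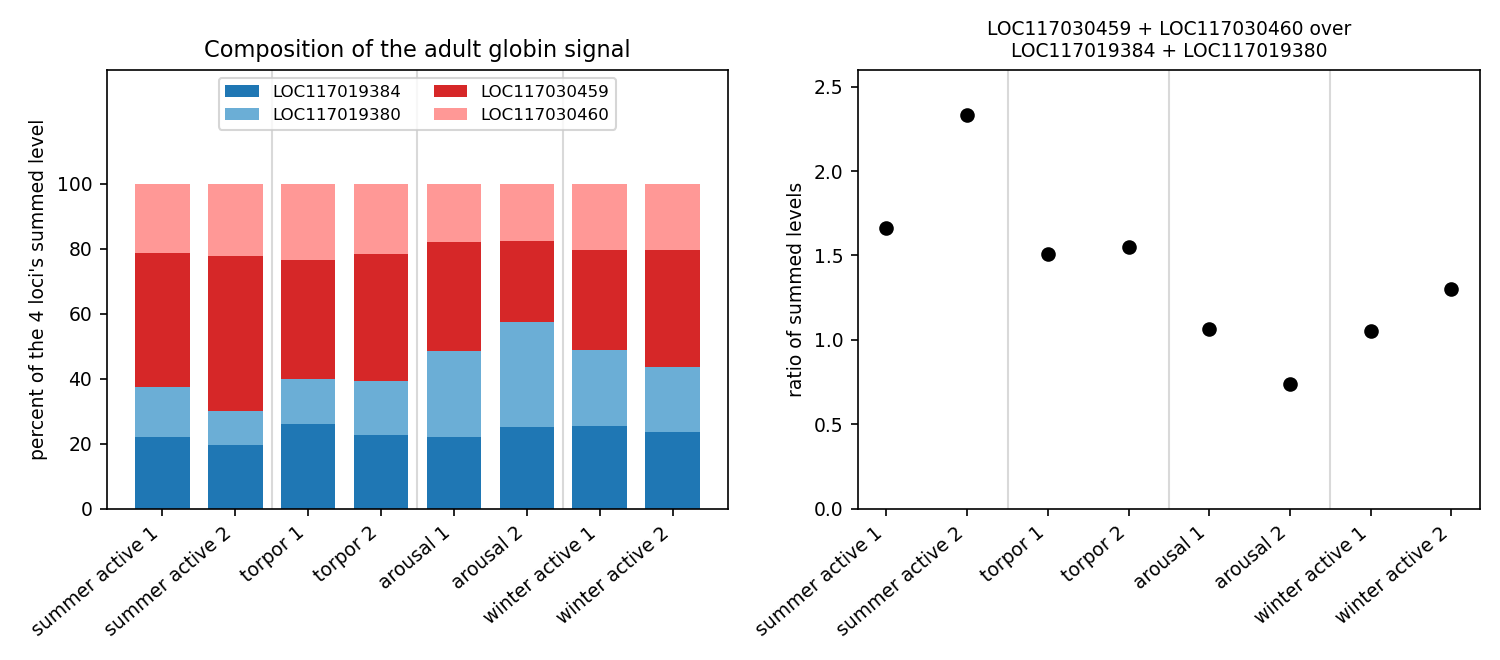
Share of each adult locus in the summed level of the 4 loci (left, stacked percent bars) and the ratio of the second pair to the alpha-cluster pair (right, 1 point per library). The ratio is 1.66 and 2.33 in summer active and lowest, 0.741, in arousal 2.

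AHSP and the minor globins did not keep a fixed proportion to the adult transcripts. Per 1000 of the alpha-cluster pair, AHSP stood at 17.5 and 30.1 in summer active, 7.37 and 1.90 in torpor, 24.2 and 2.26 in arousal, and 2.11 and 23.6 in winter active. The higher November values came from arousal 1 and winter active 2, where AHSP itself was at 0.633 and 1.56 and adult transcripts were lowest. The groups overlapped (summer minus November 1.98 on the log2 scale, exact permutation test, two-sided, p = 0.286). HBM per 1000 of that pair was 12.3 and 26.7 in summer active, 2.77 and 2.08 in torpor, 1.70 in arousal 2 and 4.97 in winter active 1, and listed at 0 in arousal 1 and winter active 2. The sum of HBZ, HBM and HBQ1 on the same scale was 12.96 and 27.5 in summer and at most 5.04 in November. Its log2 ratio differed by 3.34 over the 2 summer and the 5 November libraries where it was above 0 (exact permutation test, two-sided, p = 0.0952, the smallest this doubled p allows, adjusted p = 0.143). Adding 1 to both sums let all 8 libraries in and gave 1.55 (exact permutation test, two-sided, p = 0.357).

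**Figure D4:**
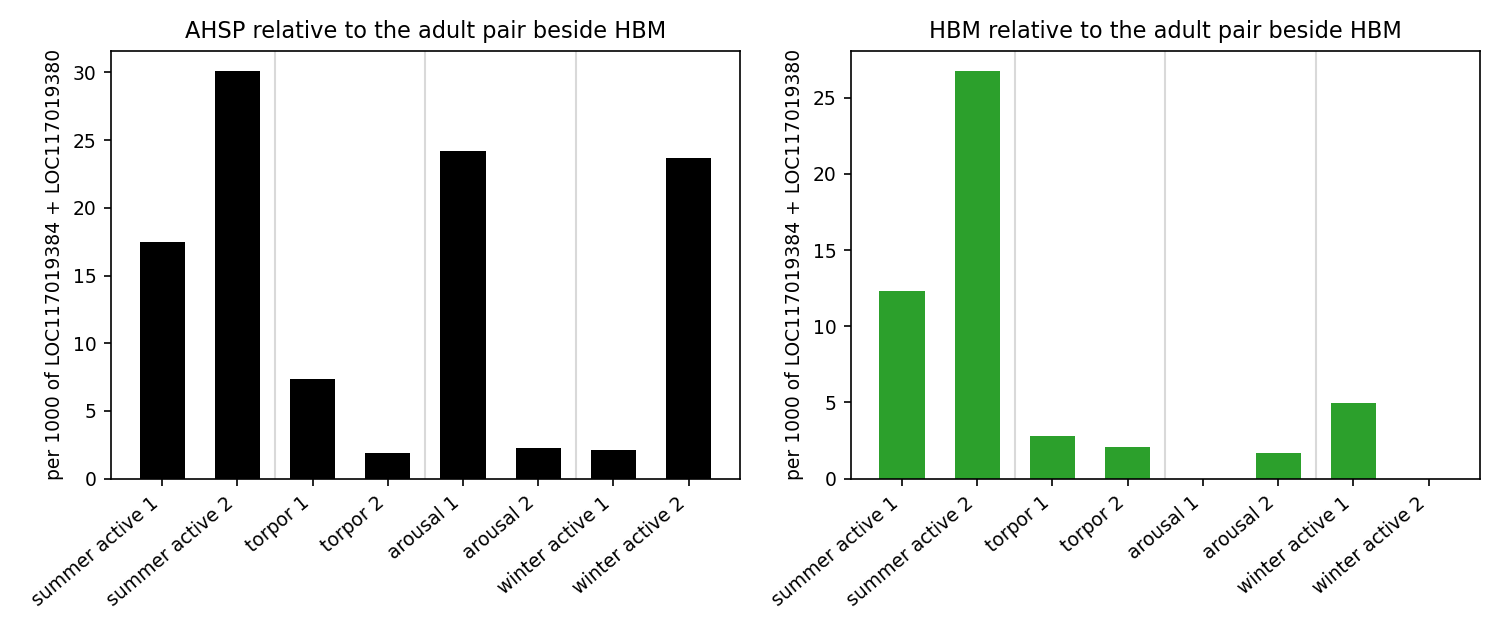
AHSP (left) and HBM (right) per 1000 of the summed level of LOC117019384 and LOC117019380, 1 bar per library. HBM is higher in both summer libraries than in any November library, whereas AHSP reaches 24.2 in arousal 1 and 23.6 in winter active 2.

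Genes bordering the clusters were measured beside the members. NPRL3, a regulator of nutrient signalling whose introns hold alpha-globin enhancers in other mammals, stood at 12.2 and 12.7 in summer active and between 5.61 and 10.3 in November (November against summer -0.75, adjusted p = 0.0752). LUC7L, on the other side, stood at 43.5 and 37.4 in summer and between 24.0 and 40.5 in November (difference -0.48, adjusted p = 0.254). LOC117034844, next to HBQ1, differed by -0.098 (adjusted p = 0.775). Near the second pair, the unnamed LOC117029623 stood at 2.72 and 3.88 in summer and at most 1.14 in November (difference -1.57, adjusted p = 0.0708), and LOC117029663 was above 0 in summer active 1 alone, at 1.36. LOC117029663 was below the filter, and none of the other 4 genes passed.

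Other genes of the red cell program were counted from lists. In this and later counts a gene fell or rose only if it was called, at an adjusted p under 0.05. Of 12 genes of heme synthesis and mitochondrial iron supply, 3 fell in torpor against summer active, 9 in arousal and 7 in winter active, and none rose. Over all tested genes 0.487%, 3.14% and 0.894% fell in these 3 comparisons and 0.0738%, 2.39% and 0.14% rose. ALAS2, the erythroid enzyme that starts heme synthesis, followed the adult globins at 1185 and 1450 in summer active, 32.6 and 33.7 in torpor, 0.0419 and 0.941 in arousal, and 23.0 and 0.218 in winter active. It missed the threshold in torpor against summer active (difference -5.27, SE 1.17, adjusted p = 0.112) and passed in arousal (-9.85, adjusted p = 0.0105) and winter active (-7.92, adjusted p = 0.0336). The mitochondrial iron importer SLC25A37 fell by 3.15 in torpor against summer active (adjusted p = 0.0048). The median difference of the list was -1.30 in torpor against summer active and -0.33 in arousal against torpor, where medians over all tested genes were -0.055 and 0.11 and those over the members -4.21 and -5.20.

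Of 14 red cell membrane and skeleton genes, 7, 10 and 8 fell in torpor, arousal and winter active against summer active, beside 0.487%, 3.14% and 0.894% of tested genes, and none rose. The anion exchanger SLC4A1 stood at 174 and 296 in summer, 0.423 and 0.428 in torpor, 0.0186 and 0.0303 in arousal, and 1.39 and 0.0107 in winter active. EPB42, which ties it to the skeleton, stood at 28.3 and 48.3 in summer, 0.867 and 0.569 in torpor and at most 1.04 later. Like HBZ, both were below 1 in both torpor libraries, where each adult globin locus was at 3078 or more. RHAG, a membrane protein of the Rh complex, fell by 3.45 in torpor (adjusted p = 0.0248), and the glycophorin GYPC differed by -1.53 (adjusted p = 0.0596). The median of the list was -2.87 in torpor against summer and -0.37 in arousal against torpor. Genes already below 1 in torpor, SLC4A1 and EPB42 among them, have little room to fall further on the log2(level + 1) scale.

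Of 15 red cell maturation genes 6, 9 and 8 fell in the same 3 comparisons, beside the same shares of 0.487%, 3.14% and 0.894%, and none rose. TMCC2 stood at 203 and 212 in summer active, 5.68 and 3.99 in torpor, 8.21 and 5.82 in arousal, and 13.7 and 7.30 in winter active. YPEL4 stood at 25.9 and 31.6 in summer and at most 0.355 in November. CA2, a carbonic anhydrase, differed by -1.99 in torpor (adjusted p = 0.133), and TENT5C, a poly(A) polymerase, by -1.57 in torpor against summer and 1.00 in arousal against torpor (adjusted p = 0.0541 and 0.149). The list's median was -1.99 in torpor against summer and -0.0088 in arousal against torpor, beside -5.20 for the members in the latter. YPEL4, already near 0 in torpor, had little room to fall further on the log2(level + 1) scale.

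Of 11 erythroid transcription factors and cofactors, EPOR included, 1, 5 and 2 fell in torpor, arousal and winter active against summer, beside 0.487%, 3.14% and 0.894% of tested genes, and none rose. TAL1, which activates erythroid genes, stood at 18.3 and 26.7 in summer and 4.96 and 2.94 in torpor (difference -2.25, adjusted p = 0.0339). GATA1, the master erythroid factor, stood at 27.7 and 39.95 in summer, 15.3 and 4.28 in torpor, and 1.81 to 5.52 in arousal and winter active, and did not pass in torpor (difference -1.89, adjusted p = 0.176). GFI1B, shared by red cell and platelet precursors, stood at 13.2 in torpor 1 and 3.47 in torpor 2 (difference from summer -1.01, adjusted p = 0.424). BCL11A, a repressor of fetal globin in humans, differed by -1.62 (adjusted p = 0.0882). None of the listed genes in these 4 lists passed in arousal against torpor.

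**Figure D5:**
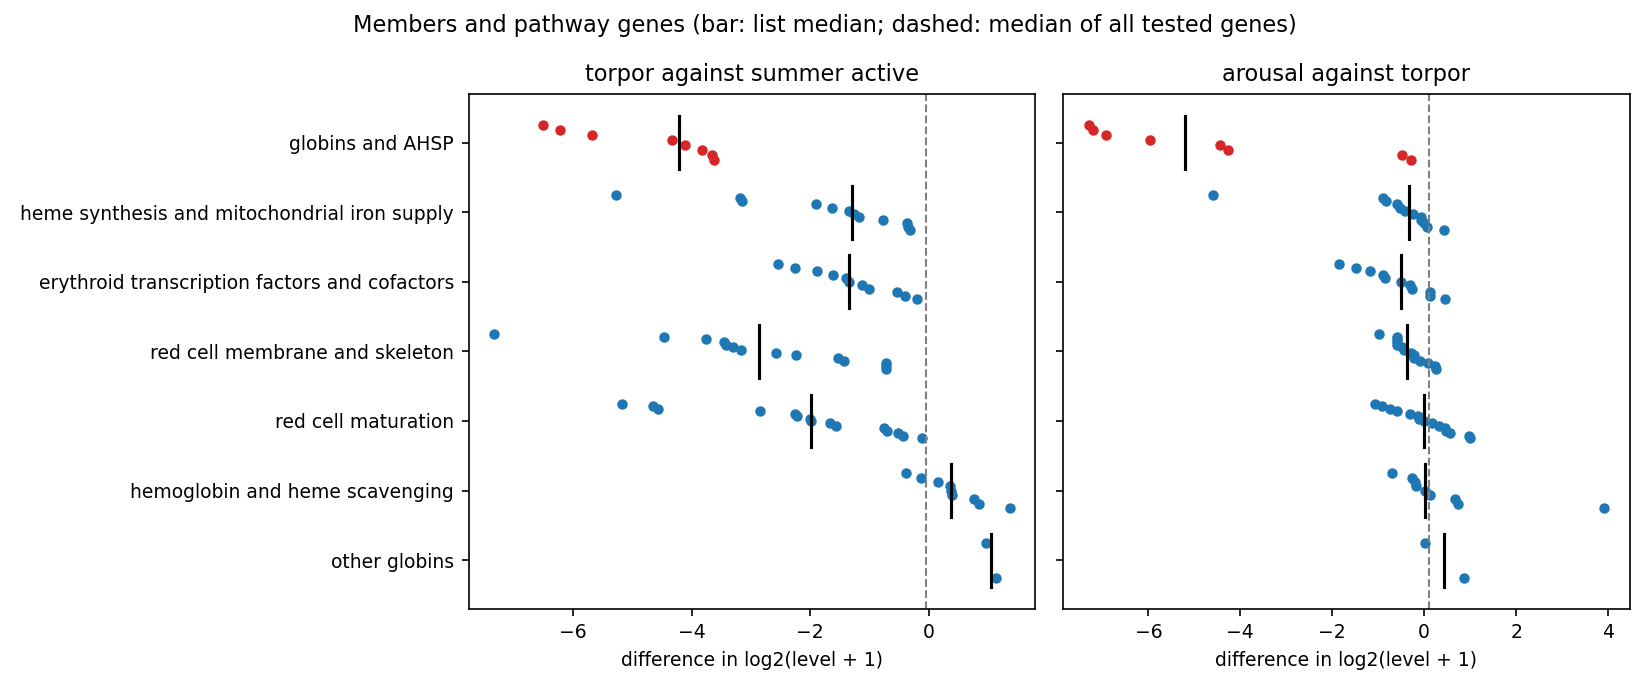
Differences in log2(level + 1) of the members (red) and of the listed genes (blue), 1 point per gene, with a black bar at each list's median and a dashed line at the median of all tested genes. In torpor against summer active (left) the 4 red cell lists have medians of -2.87 to -1.30, and in arousal against torpor (right) of -0.49 to -0.0088, where the members' median is -5.20. Genes already near 0 in torpor have little room to fall further on this scale. These include SLC4A1, EPB42 and YPEL4 among the listed genes, and HBZ and HBQ1 among the members.

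Of 9 genes of hemoglobin and heme scavenging none passed in any of the 7 comparisons, where at most 3.14% of tested genes fell and at most 2.39% rose, with a list median of 0.37 in torpor against summer active. Heme oxygenase HMOX1, which degrades heme, stood at 1408 and 393 in summer and between 952 and 2886 in November. The iron exporter SLC40A1 differed by 0.85 in torpor (adjusted p = 0.352), and the biliverdin reductase BLVRA by 0.15 (adjusted p = 0.752). The liver-made heme binder HPX ranged from 0.0694 in winter active 2 to 1889 in arousal 2, where hepatocyte markers were also highest. Of the globins outside the red cell, CYGB stood at 9.20 and 6.18 in summer and 7.67 to 37.9 in November, and myoglobin MB was at most 5.13, neither passing in any comparison. NGB and ADGB stayed at or below 0.220 in all libraries.

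Outside the members, the named genes whose profile over the 8 libraries was most like AHSP (Pearson r of log2 levels, no test) were CENPT (0.990), PTTG1 (0.990), BIRC5 (0.985), ANKLE1 (0.984), GYPC (0.982), GPX1 (0.982), UBE2S (0.982) and KIFC1 (0.981). Among members HBM stood at 0.984. BIRC5, which acts in cell division and is also on the proliferation list, stood at 151 and 265 in summer, 58.1 and 55.7 in torpor, and 24.8 to 37.5 later. The non-members most like the adult sum were BEND5 (0.999), MRPL41 (0.980), RHOT2 (0.980), NFKBIB (0.980), GFER (0.979), PDAP1 (0.979), IQCC (0.975) and RNF126 (0.974). BEND5 ran from 32.8 and 33.5 in summer over 21.8 and 22.7 in torpor to 9.83 and 14.0 in arousal and 18.8 and 10.6 in winter active, a span far narrower than that of the globins. AHSP and the adult sum correlated at 0.925 over 8 libraries and 0.901 over the 6 November libraries. HBM correlated with the adult sum at 0.951 and 0.971. All of these points share the same 8 libraries and their scaling.

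Spleen markers were present throughout. The spleen factor TLX1 stood at 15.4 to 46.0 and the macrophage gene C1QA at 1488 to 7835 over the 8 libraries. The summed level of 6 B-cell markers was 2572 to 2728 in summer active, 847 to 1057 in torpor, 651 to 1130 in arousal and 1041 to 1397 in winter active. Of 8 macrophage markers it was 4559 to 14507 in summer active and 11097 to 19527 in November. The 7 hepatocyte markers summed to 17268 in arousal 2 and 49.0 to 2244 in the other libraries. The 4 pancreatic acinar markers summed to 11.8 to 14.4 in summer active, 314 to 1304 in torpor and 20.7 to 674 in arousal and winter active, and the 4 adipocyte markers to 4.96 to 6.29 in summer active and 23.1 to 164 in November. The 3 T-cell markers summed to 140.0 to 157 in summer active and 52.0 to 109 in November, the 4 platelet and megakaryocyte markers to 27.5 to 98.0 and 18.5 to 99.7, and the 4 spleen development genes to 97.1 to 265 and 179 to 244. In November against summer 2 of 6 B-cell markers fell (CD79A and CD79B) and 1 of 3 T-cell markers fell (CD5), where 2.26% of tested genes fell. In the same comparison 1 of 4 adipocyte markers rose (PLIN1, where 0.657% of tested genes rose). These genes were named after their values were seen. None of the macrophage, hepatocyte, pancreatic acinar, platelet and megakaryocyte or spleen development markers passed in that comparison. No marker of the B-cell, T-cell and macrophage lists was at 0 in any library. Proliferation markers (5 genes) summed to 274 and 472 in summer active and 46.8 to 108 in November. In November against summer 4 of 5 fell, beside 2.26% of tested genes. None passed in torpor against summer, while 4 fell in arousal and 3 in winter active, beside 0.487%, 3.14% and 0.894% of tested genes. The part of these shifts in the globin differences was not tested.

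The abundance of the globins also bears on scaling. The 8 members held 30.3% and 30.02% of the signal in summer active and at most 3.14% elsewhere. With every column set to 1000000, the median difference of all genes between November and summer was 0.54, and it was 0.10 when the 8 members were left out of those totals, against 0.029 for the deposited scale. On the first of these scales LOC117030459 differed by -10.64 in arousal against summer, and on the second by -11.16.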

How the data were processed

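RNA of 8 spleen libraries was measured, 2 per state, with groups and replicate numbers taken from the sample titles. Per the submitters' processing notes, kallisto 0.46.2 and sleuth 0.30.0 were used. The sources used here do not give the reference transcriptome, nor how transcripts were summed or libraries rescaled. The deposited values are named TPM by the authors, but the columns sum to 745098 to 1331820, so they were treated as a rescaled signal per transcript length, not as the TPM that the planned tests assumed. Depth is unknown, so no counting interval was given.

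Levels were tested as log2(level + 1) with limma 3.58.1 (R 4.3.3, trend in eBayes) in 1 fit of all 8 libraries, for genes with an 8-library mean of at least 1, with Benjamini-Hochberg adjusted p over 13542 genes in each of 7 comparisons. Residual degrees of freedom were 4, with 3.29 added by eBayes. The code was tested on simulated data. Ratios were tested by exact permutation, with the one-sided p doubled. Pathway genes were named by rule: in each list, those with the 2 smallest p in torpor against summer active and the 2 smallest in arousal against torpor. Some listed genes, TMEM14C, GYPB, RHD, CA1, SELENBP1 and HP among them, were not analysed here, and not every gene the rule names is reported here. Gene order came from the mRhiFer1_v1.p annotation. The build of the files is not named, so no coordinates are given, and product names planned for naming the chains were replaced by gene order. The members, lists and tests were chosen with earlier results of these data known. The replicate numbers did not pair samples, and 18 alternative settings were run. Among levels above 0, no gene had the same value in any pair of libraries.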

Additional observations from a re-analysis of the deposited data

How the results depend on the processing

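Of 994 values of the members under alternative settings, 907 kept their direction and side of the threshold, 67 lost a call, 13 gained one and 7 reversed. Against summer active, 31 of the lost calls were in arousal, 27 in November, 7 in winter active and 2 in torpor. Comparisons between November states held no call to lose, and HBZ and HBQ1 lost none, so the losses fell on the other members. In torpor against summer active the count of members called was 6 with only the libraries compared. In arousal against summer active it was 5 without the filter on low values and 4 with only the libraries compared. In winter active against summer active it was 7 with columns rescaled to 1000000. In arousal against torpor it was 1 with columns rescaled to 1000000. In November against summer active it was 4 without the filter and 4 with robust eBayes. HBZ and HBQ1 were in each of these counts against summer active. The number of all tested genes called also changed with the setting. Against summer active, arousal had 284 of 18332 without the filter and 41 of 13628 with only the libraries compared. November had 244 of 18332 without the filter and 420 of 13542 with robust eBayes. Winter active had 778 of 13613 with columns rescaled to 1000000, and torpor 22 of 13389 with only the libraries compared. Fits without a library hold fewer samples, and otherwise the cause was not tested. Differences that reversed without 1 library ranged, in winter active against torpor, from -0.44 to 0.029 for HBQ1, and in winter active against arousal from -0.51 to 5.08 for LOC117019384, -1.06 to 4.66 for LOC117019380, -0.19 to 5.09 for LOC117030459, -0.32 to 5.15 for LOC117030460 and -0.44 to 3.73 for HBM. The lone library of a state was then assumed to vary like the others. The 3 ratios kept their direction in every alternative run.

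Same-numbered libraries deviated together with correlations of -0.19 to 0.32 over the pairs of states, so the numbers were not taken as pairs. With the replicate block the count of members called against summer active was 3 in torpor, 8 in arousal, 4 in winter active and 5 in November. HBZ and HBQ1 were in each of these counts. Over all 13542 tested genes 85, 842, 103 and 416 were called, in the same order. In November against summer active LOC117019384 (adjusted p = 0.0574) and LOC117030460 (0.0510) lost their calls.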
